A study of Mus musculus with 10 samples.

Results

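The genes described here are 8 markers of mural cells, the contractile cells that wrap blood vessels: Myh11, Tagln, Cnn1 and Smtn, which mark vascular smooth muscle, and Rgs5, Pdgfrb, Cspg4 and Mcam, which mark pericytes. They are commonly used markers listed by name, and no measured value entered the rule, but earlier results of these data were known when they were chosen. All 8 were among the 23337 genes of the table, and all 8 passed the filter on low counts that left 13084 genes for testing. RNA was sequenced from the right atria of 10 mice of mixed strain, 4 labelled control and 6 labelled Tbx5 mutant, with 1 library per mouse. In the mutant mice exon 3 of Tbx5 was to be removed by a Cre recombinase that tamoxifen activates and that is made from the R26 promoter, which is active in nearly every cell type. Tbx5 is the gene of a T-box transcription factor of the atrium. Tamoxifen was injected at 0.167 mg per day for 3 days and tissue was taken 1 week later. The labels give 8 to 10 weeks as age in both groups, whereas the extraction protocol gives 6 to 8 weeks. The control label names no allele, and the study's text describes its controls as R26 CreERt2 mice. Because R26 is active so broadly, the design does not limit the targeting of Tbx5 to heart muscle cells, and mural cells can carry it too.

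Vascular smooth muscle cells line arteries and veins in layers and set vessel tone by contraction, for which they hold a smooth muscle myosin, actin and a set of actin-binding proteins. Pericytes sit singly on capillaries within the basement membrane. They are recruited by platelet-derived growth factor B from endothelial cells, which acts on the receptor encoded by Pdgfrb. In smooth muscle, many contractile genes are switched on by serum response factor with its coactivator myocardin at a DNA element called the CArG box.

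The libraries held between 5703775 and 7095141 counts. In mutant mouse M3, 38.9% of the counts fell on the ribosomal precursor Rn45s, against 0.268% to 1.49% in the other libraries, which left 3484550 counts for other genes. No pair of libraries of a group was alike within sampling noise, since the chi-square per degree of freedom was at least 3.94 in the 21 pairs. Tbx5 was higher, not lower, in the mice labelled mutant: its count was 1195 to 1505 in the control libraries and 1010 to 3524 in the mutant libraries, a log2 fold change of 0.94 (SE 0.15, edgeR quasi-likelihood test, adjusted p = 0.000495). Counts over the whole gene do not separate transcripts with and without exon 3. Directions below are therefore relative to the labels, and "control" and "mutant" stand for the mice so labelled. The reads of Xist and Ddx3y went against the labelled sex in all 4 control mice and matched it in all 6 mutant mice. By these reads, the mice of a labelled sex are control and mutant mice of opposite sex, and values within a labelled sex carry that difference. The labels name no batch. They do not say whether mice shared a litter or a cage, and p-values measure the spread between these mice.

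Of the smooth muscle markers, Tagln was 4.04-fold higher in mutant than in control right atria, whereas Myh11 and Smtn did not pass the test and Cnn1 was split among the mutant mice. Of the pericyte markers, Mcam rose 1.66-fold, Pdgfrb and Cspg4 rose by less than 1.5-fold, and Rgs5 did not pass the test. Calls required a Benjamini-Hochberg adjusted p under 0.05 in the edgeR quasi-likelihood test over all 13084 genes, a fold change over 1.5 and a normalized mean over 1 in control mice. Of the 8 markers, 2 were called, Tagln and Mcam, both higher in mutant mice. Over all genes tested, 15.7% were called, 8.5% higher and 7.16% lower. By adjusted p alone, 4 of the 8 markers passed, all higher, where 31.3% of all genes passed, 16.3% higher and 15.0% lower. In 2 of the 8, again Tagln and Mcam, every mutant library lay above every control library. Over all genes, 22.7% did not overlap between the groups, 11.7% with the mutant higher and 11.0% with the mutant lower. The median log2 fold change was 0.46 over the 8 markers and -0.0050 over all genes tested. Without mutant mouse M3, the library rich in Rn45s, 2 of the 8 were called as well, Tagln at 2.09 and Mcam at 0.77 on the log2 scale (edgeR adjusted p = 0.000549 and 0.00140). In bulk tissue, fewer cells of a type and less RNA per cell cannot be told apart.

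**Figure D1:**
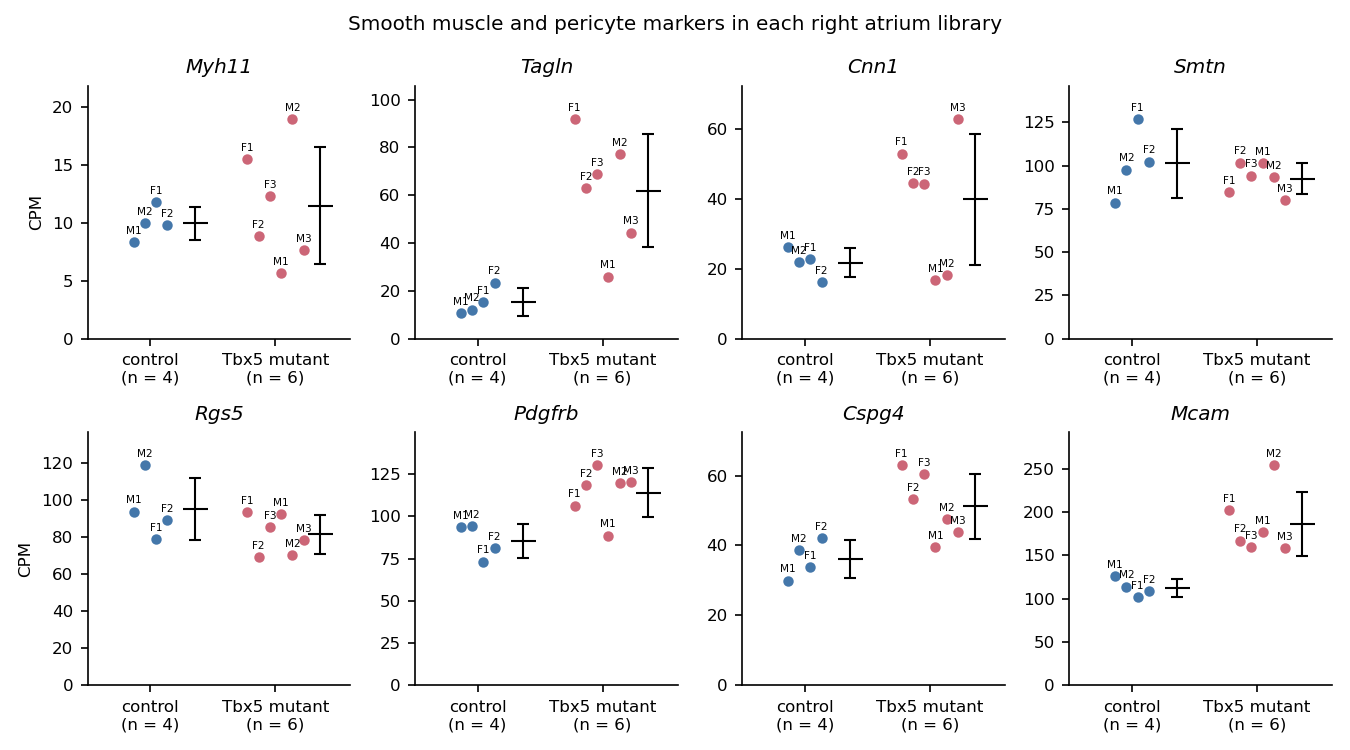
Level in CPM (vertical axis) of each of the 8 markers in the 4 control (blue) and 6 mutant (red) libraries, named by mouse, with the mean and SD of each group in black. Tagln and Mcam do not overlap between the groups, and mutant mice M1 and M2 lie at 16.6 and 18.1 CPM of Cnn1, within the control range.

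Tagln encodes transgelin, an actin-binding protein of the smooth muscle cytoskeleton (ENSMUSG00000032085.5, reverse strand, chr9:45929628-45936058 in RefSeq on GRCm38.p6, the mouse build known as mm10). Its level, in CPM (counts scaled to a common library size by edgeR's TMM method), was 10.6, 12.1, 15.2 and 23.4 in control mice M1, M2, F1 and F2. In the mutant mice it was 25.9 at the lowest, 65.9 at the median and 92.0 at the highest. The lowest mutant mouse, M1, lay just above the highest control mouse, F2, and the other 5 lay at 44.4 or above. Tagln thus went from 15.3 ± 5.73 CPM (SD, n = 4) to 61.9 ± 23.6 CPM (SD, n = 6), a fold change of 4.04 (95% CI 2.52 to 6.46, log2 fold change 2.01, SE 0.32, edgeR adjusted p = 0.000378). An exact two-sided permutation test over the 210 splits of 4 mice against 6 gave p = 0.00476, the smallest it can give. The gene overlaps Pcsk7 on the opposite strand, with 108 shared exon bases, and the strand setting of the counting is not stated. Pcsk7 itself had 108 to 237 counts per library, and Tagln 73 to 583.

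Myh11 encodes the heavy chain of smooth muscle myosin, the most specific of the contractile markers (ENSMUSG00000018830.10, chr16:14194527-14292188, reverse strand). It was found in every library, at 8.29, 9.93, 11.8 and 9.75 CPM in control mice M1, M2, F1 and F2. In the mutant mice it ranged from 5.66 through a median of 10.5 to 18.9 CPM. Mutant mice M1 and M3 lay below every control mouse, and F1, F3 and M2 above every control mouse. The group means were 9.93 ± 1.42 CPM (SD, n = 4) and 11.5 ± 5.06 CPM (SD, n = 6), and the log2 fold change of 0.23 (95% CI -0.36 to 0.82) had an adjusted p of 0.552 in edgeR. The interval leaves room for a rise of up to 1.76-fold. The gene had 28 to 130 counts per library.

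Cnn1 encodes calponin, which binds actin and restrains the myosin ATPase (ENSMUSG00000001349.5, chr9:22099221-22109221, forward strand). Its level was 26.1, 21.8, 22.7 and 16.1 CPM in control mice M1, M2, F1 and F2. The mutant mice were split. M1 and M2 had 16.6 and 18.1 CPM, inside the control range, and the other 4 had 44.3 to 62.9 CPM. The difference of means, 21.7 ± 4.17 CPM (SD, n = 4) against 39.9 ± 18.8 CPM (SD, n = 6), missed the threshold, with a log2 fold change of 0.87 (SE 0.33, edgeR adjusted p = 0.0572) and an exact permutation p of 0.143. Without mutant mouse M1 the adjusted p in edgeR was 0.0124, and without M2 it was 0.0171. With any other mouse left out Cnn1 did not pass, at adjusted p of 0.0725 to 0.139 in edgeR.

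Smtn encodes smoothelin, a protein of contractile smooth muscle stress fibres, with longer forms also found in the heart (ENSMUSG00000020439.17, chr11:3517522-3539292, reverse strand). It was 78.6, 97.6, 127 and 102 CPM in control mice M1, M2, F1 and F2. The mutant mice had 80.0 to 102 CPM, and their median was 93.7. All mutant mice lay inside the control range. The log2 fold change was -0.13 (95% CI -0.39 to 0.13, edgeR adjusted p = 0.435). In the mice labelled male alone its sign turned, to 0.060, also short of the threshold (edgeR adjusted p = 0.828). An antisense long noncoding gene, Gm11946, shares 714 exon bases with Smtn and was not analysed here.

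Mcam encodes an adhesion molecule, also named CD146, of pericytes, smooth muscle and endothelium (ENSMUSG00000032135.15, chr9:44134658-44142727, forward strand). Its level was 126, 114, 101 and 108 CPM in control mice M1, M2, F1 and F2. In the mutant mice it was 158 at the lowest, 172 at the median and 254 at the highest. All mutant mice lay above the control range, and M2 stood highest. Mcam rose from 112 ± 10.3 CPM (SD, n = 4) to 186 ± 36.8 CPM (SD, n = 6), a log2 fold change of 0.73 (95% CI 0.44 to 1.02, edgeR adjusted p = 0.00117). The exact permutation test gave p = 0.00476, the smallest it can give. In the mice labelled male alone, the log2 fold change was 0.72 with an adjusted p of 0.0601 in edgeR.

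Pdgfrb, the receptor for platelet-derived growth factor B, is the signalling receptor through which pericytes are recruited (ENSMUSG00000024620.11). It was 93.7, 94.1, 73.2 and 81.1 CPM in control mice M1, M2, F1 and F2. In the mutant mice it ranged from 88.6 through a median of 119 to 130 CPM. Mutant mouse M1 lay inside the control range and the other 5 above it. The rise from 85.5 ± 10.2 CPM (SD, n = 4) to 114 ± 14.5 CPM (SD, n = 6) passed the test but not the fold threshold, with a log2 fold change of 0.41 (SE 0.11, edgeR adjusted p = 0.0137). The exact permutation p was 0.0190. Without control mouse F1, the lowest, the adjusted p in edgeR was 0.0523.

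Cspg4 encodes the proteoglycan NG2 on the pericyte surface (ENSMUSG00000032911.6, chr9:56865104-56899870, forward strand). Its level was 29.9, 38.7, 33.7 and 42.1 CPM in control mice M1, M2, F1 and F2, against 39.4 to 62.9 CPM with a median of 50.4 in mutant mice. As for Pdgfrb, mutant mouse M1 lay inside the control range and the other 5 above it. The log2 fold change was 0.51 (SE 0.14, edgeR adjusted p = 0.0149, exact permutation p = 0.0190), short of 1.5-fold. With control mouse F2 left out it reached 0.60 and was called (edgeR adjusted p = 0.0126). It was also called, at 0.74, once each library's trend on transcript length had been removed (edgeR adjusted p = 0.00171).

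Rgs5 encodes a regulator of G-protein signalling that damps the response of mural cells to contractile signals (ENSMUSG00000026678.10, chr1:169655501-169695813, forward strand). It was 93.6, 118, 78.7 and 89.1 CPM in control mice M1, M2, F1 and F2. The mutant mice ranged from 68.9 through a median of 81.7 to 93.2 CPM. Of the 6, F2, M2 and M3 lay below every control mouse, and none lay above. The log2 fold change was -0.22 (95% CI -0.49 to 0.04, edgeR adjusted p = 0.181), which did not pass the test, and its interval does not reach the rise of Mcam.

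Mutant mouse M1 had the lowest mutant level of 5 of the 8 markers, namely Myh11, Tagln, Cnn1, Pdgfrb and Cspg4. It was not low in all of them: its Mcam, at 177 CPM, was the third highest among the mutant mice, and its Rgs5 and Smtn were each the second highest. The summed level of the 8 markers was 464 to 506 CPM in control and 546 to 710 CPM in mutant mice. The wider mural lists described below did not all rise. Their sums in control and mutant mice were 852 to 933 and 723 to 812 CPM for other pericyte genes. They were 867 to 1078 and 666 to 814 CPM for recruitment genes, 937 to 1092 and 1017 to 1937 CPM for further contractile genes. For the regulators they were 316 to 359 and 349 to 423 CPM. In no marker did the fold change depend on the labelled sex beyond the test. The interaction of genotype with labelled sex had an adjusted p under 0.05 in 0 of the 8 (edgeR), 0 of the 8 had an unadjusted p under 0.05, and 38 of all genes passed. With the sex of the control mice exchanged, as their reads would have it, the interaction again passed in 0 of the 8 and in 1 of all genes. Cspg4 and Tagln then had unadjusted p-values under 0.05, with adjusted p = 0.455 and 0.480 in edgeR.

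Levels of different genes were compared per kilobase of exon, as CPM per kb. In control right atria Mcam was highest at 33.5 ± 3.08 CPM per kb (SD, n = 4), followed by Smtn at 23.1 and Rgs5 at 20.9, whose ranges overlapped, and Pdgfrb at 15.6. Cnn1 at 7.93 and Tagln at 7.71 CPM per kb also overlapped in range, and Cspg4 at 3.03 and Myh11 at 1.31 CPM per kb came last. In mutant right atria Mcam remained highest at 55.6 ± 11.0 CPM per kb (SD, n = 6). Tagln stood next at 31.1 ± 11.9 CPM per kb (SD, n = 6), having been the sixth in control mice. The ranges of Tagln, Smtn (21.1), Pdgfrb (20.8), Rgs5 (17.9) and Cnn1 (14.6) each overlapped the next in this order. Cspg4 at 4.30 and Myh11 at 1.51 CPM per kb were last again.

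Some ratios between markers of a cell type differed between the groups, and others did not pass the test. Ratios of counts within a library do not depend on how libraries are scaled, and all 28 ratios among the 8 markers were computed after their values had been seen. They can still carry a trend on transcript length, for which they were not corrected. Over all genes tested, Spearman's rho of log2 fold change with transcript length was -0.32. With this trend removed, the log2 fold change was 1.85 for Tagln and 0.41 for Myh11. By exact permutation tests adjusted over the 28 ratios, 9 differed between the groups, and Tagln took part in 5 of these, Rgs5 in 4 and Cnn1 in 0. Of the 12 ratios between markers of the same cell type, 5 differed, each of them with Tagln or Rgs5. The rest are not shown to be unchanged. Myh11 per Cnn1 shifted by -0.63 on the log2 scale, with mutant ratios of 0.121 to 1.05 (adjusted exact permutation p = 0.428). Cnn1 per Smtn shifted by 0.84 (adjusted exact permutation p = 0.220). Myh11 per Tagln was 0.784, 0.822, 0.773 and 0.416 in control mice M1, M2, F1 and F2, against 0.140 to 0.245 in mutant mice. The ranges were apart, and the log2 ratio was lower by 1.88 in mutant mice (exact permutation p = 0.00476, adjusted p = 0.0222). Tagln also rose against Smtn (log2 difference 2.09), Rgs5 (2.19), Cspg4 (1.47) and Pdgfrb (1.56), with adjusted p-values of 0.0222 for the first 3 and 0.0381 for Pdgfrb in the exact permutation test. Against Mcam and Cnn1 the log2 differences of 1.26 and 1.24 did not pass (adjusted exact permutation p = 0.0667 and 0.124).

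Among the pericyte markers it was Rgs5 that parted from the rest. Rgs5 per Mcam was 0.744, 1.04, 0.776 and 0.823 in control mice M1, M2, F1 and F2, against 0.276 to 0.535 in the mutant mice, without overlap. The log2 difference was -0.93 (exact permutation p = 0.00476, adjusted p = 0.0222). Against Pdgfrb and Cspg4 it was -0.63 and -0.72, with the groups overlapping (exact permutation p = 0.0143 and adjusted p = 0.0444 for each). Pdgfrb per Cspg4 was 2.42 ± 0.52 (SD, n = 4) in control and 2.26 ± 0.36 (SD, n = 6) in mutant mice, a log2 difference of -0.09 (exact permutation p = 0.652). Smtn per Mcam was lower by 0.83 on the log2 scale in mutant mice (exact permutation p = 0.00476, adjusted p = 0.0222).

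**Figure D2:**
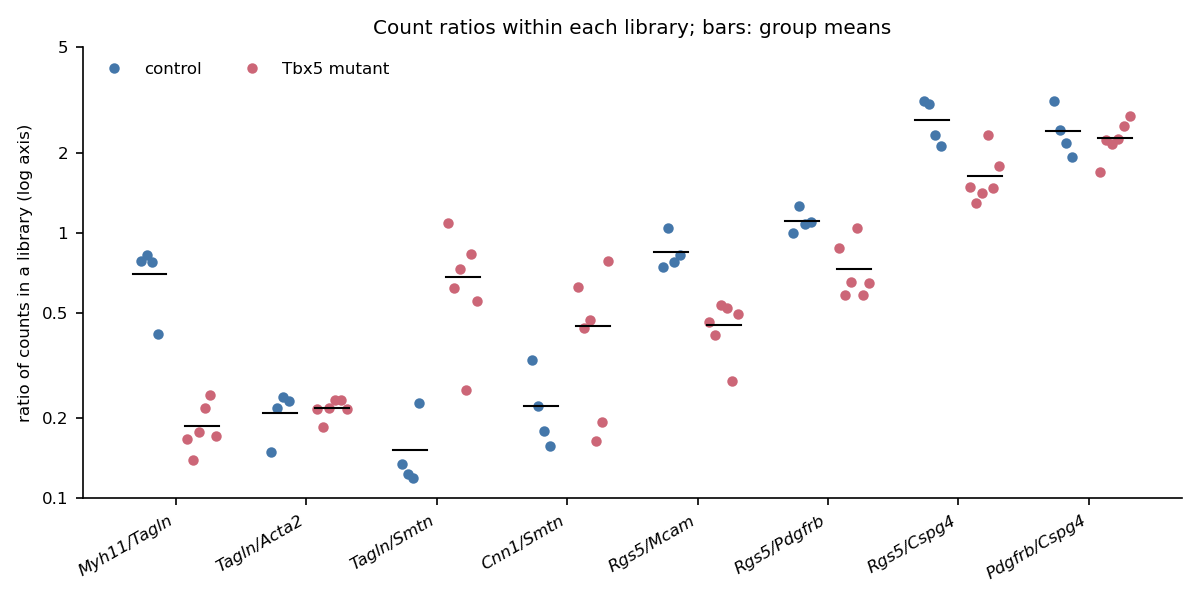
Ratio of the counts of 2 genes within a library (log axis) for 8 ratios, each dot a library, blue control (n = 4) and red mutant (n = 6), with black bars at the group means. Myh11 per Tagln, Tagln per Smtn and Rgs5 per Mcam do not overlap between the groups, and Tagln per Acta2 lies between 0.150 and 0.241 in all 10 libraries.

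Within the groups, no pair of markers varied together beyond the test. Pearson correlations of the deviations from the group means were computed for the 28 pairs over the 10 libraries, and 0 of the 28 had a permutation p under 0.05 after adjustment over the pairs. The highest were Tagln with Cspg4 (r = 0.82, permutation p = 0.00714, adjusted p = 0.120) and Myh11 with Tagln (r = 0.80, permutation p = 0.00861, adjusted p = 0.120). Spearman's rho was 0.82 for Tagln with Cspg4 and 0.71 for Myh11 with Tagln. Leaving out the 2 libraries farthest from the median gave r = 0.65 and r = 0.67. The median r of the 28 pairs was 0.078.

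The gene whose levels over the 10 libraries were most like those of Tagln was Acta2, smooth muscle actin, with a root mean square distance of 0.184 between the centred log2 profiles. The other 7 markers ranked from place 574 (Mcam) to place 9708 (Rgs5) among all genes tested. Tagln per Acta2 was 0.211 ± 0.041 (SD, n = 4) in control and 0.218 ± 0.018 (SD, n = 6) in mutant mice. A steady ratio follows from the choice of Acta2 as the nearest gene in the same libraries and is no separate result. For Mcam, the nearest genes were 5430435G22Rik (0.0992), Snx7, a sorting nexin of endosomes (0.114), and Mxra7 (0.119), and the nearest of the markers was Pdgfrb at place 1137 (0.286).

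**Figure D3:**
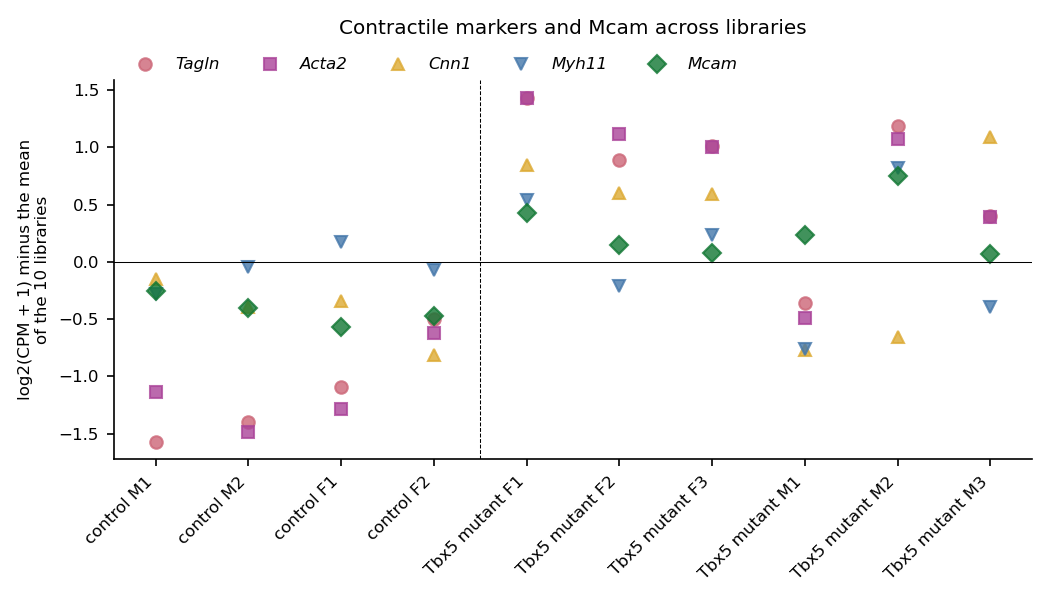
Level of Tagln, Acta2, Cnn1, Myh11 and Mcam in each library as log2(CPM + 1) minus the gene's mean over the 10 libraries (vertical axis), with control libraries left and mutant libraries right of the dashed line. Tagln and Acta2 lie close to each other in each library, and both are lowest among mutant mice in M1, where Acta2 is at 110 CPM. Acta2 is the gene nearest to Tagln in these same libraries, and their closeness follows from that choice.

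Of 13 further contractile genes of smooth muscle in the table, 10 were tested, 3 were called higher and none lower, with a median log2 fold change of 0.21. Over all genes tested, 8.5% were called higher and 7.16% lower. Acta2 went from 72.4 ± 20.04 CPM (SD, n = 4) to 287 ± 111 CPM (SD, n = 6), a log2 fold change of 1.98 (SE 0.31, edgeR adjusted p = 0.000339). Myl9, the regulatory light chain of smooth muscle myosin, rose by a log2 fold change of 0.75 (edgeR adjusted p = 0.00497), from 622 ± 62.3 CPM (SD, n = 4) to 1049.6 ± 227 CPM (SD, n = 6). Mylk, the kinase that phosphorylates this light chain, rose by 0.61 on the log2 scale (edgeR adjusted p = 0.00895). Ppp1r12b, a targeting subunit of myosin phosphatase, fell by 0.33 on the log2 scale, less than 1.5-fold (edgeR adjusted p = 0.0166). Ppp1r12b stood at a mean of 163 CPM in control mice, against 9.93 CPM for Myh11. Which cells its RNA came from was not tested. Among the genes that did not pass was Ppp1r14a, an inhibitor of myosin phosphatase, at -0.44. Actg2, Kcnmb1 and Sncg were too low to test, at no more than 2.48 CPM in any library.

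Of the regulators of smooth muscle genes, 5 of 6 were tested. Myocd, the coactivator myocardin, which heart muscle cells also express, was called: it rose from 111 ± 11.3 CPM (SD, n = 4) to 197 ± 25.4 CPM (SD, n = 6), a log2 fold change of 0.83 (SE 0.11, edgeR adjusted p = 0.000127), without overlap. Its binding partner Srf stood at -0.13 (edgeR adjusted p = 0.282), and the related coactivator Mkl2 fell by 0.41 on the log2 scale (edgeR adjusted p = 0.0105), less than 1.5-fold. The list as a whole thus had 1 gene called higher and none lower, with a median of -0.13. The shares over all genes were 8.5% higher and 7.16% lower.

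The promoter windows of Acta2 and Myl9 are shown because they hold a CArG box, and that of Mcam as a called marker that holds none. Each window holds the 250 bases before the transcription start from RefSeq on GRCm38.p6, printed 5′ to 3′ on the strand of the gene with CArG boxes in capitals. The lines give Acta2 (chr19:34255374-34255623, reverse strand), Myl9 (chr2:156775214-156775463, forward strand) and Mcam (chr9:44134408-44134657, forward strand).
Acta2: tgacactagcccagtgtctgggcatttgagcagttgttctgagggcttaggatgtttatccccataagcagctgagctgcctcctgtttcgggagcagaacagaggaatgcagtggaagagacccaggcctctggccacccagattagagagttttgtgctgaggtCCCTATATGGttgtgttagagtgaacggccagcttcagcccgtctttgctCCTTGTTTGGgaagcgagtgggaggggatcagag
Myl9: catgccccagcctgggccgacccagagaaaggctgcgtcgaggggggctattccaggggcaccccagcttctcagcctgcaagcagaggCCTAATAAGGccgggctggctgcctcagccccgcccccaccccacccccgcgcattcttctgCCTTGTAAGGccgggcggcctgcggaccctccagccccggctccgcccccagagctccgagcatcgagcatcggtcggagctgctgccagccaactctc
Mcam: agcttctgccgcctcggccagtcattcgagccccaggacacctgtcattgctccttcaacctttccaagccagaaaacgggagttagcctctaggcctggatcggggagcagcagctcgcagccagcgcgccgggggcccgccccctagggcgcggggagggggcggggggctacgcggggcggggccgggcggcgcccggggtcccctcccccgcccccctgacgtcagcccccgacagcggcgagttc

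The CArG box was searched on both strands as CC, 6 bases of A or T, and GG, and in a looser form with at most 1 G or C among the 6. The strict form was found in 1.47% of the 32851 windows of the table and the looser form, which holds the strict one, in 8.59%. Acta2 held 2 boxes of the looser form, CCCTATATGG and CCTTGTTTGG, which begin 84 and 34 bases before the start. Myl9 held the strict box CCTAATAAGG at 161 bases and the looser CCTTGTAAGG at 99 bases before the start. These were 2 of the 11 further contractile genes with a window, and Mylk, also called higher, held neither form. Windows were given for 5 of the 8 markers, Cnn1, Smtn, Rgs5, Cspg4 and Mcam, and 0 of the 5 held either form. Gene starts differ between annotations. In GENCODE, another annotation, the starts of Mcam (44134469), Cspg4 (56865033) and Cnn1 (22099216) lie within their windows. That of Smtn (3540612) lies upstream of its window. By GENCODE, part of the bases searched for these genes is therefore not upstream of the gene. GGTGTG, the core of the T-box element, stood on either strand in 16.3% of all windows and in 0 of the 5. These letters are a description of 250 bases and show neither binding nor its absence. Myh11, Tagln and Pdgfrb are named only.

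Of the 18 genes of the wider pericyte list, all tested, 2 were called lower and none higher, where 7.16% of all genes were called lower and 8.5% higher, and the median log2 fold change was -0.10. P2ry14, a receptor for UDP-sugars, fell by 0.99 on the log2 scale (edgeR adjusted p = 0.0138), on 8 to 41 counts per library. Gucy1a3, the alpha subunit of soluble guanylate cyclase, through which nitric oxide relaxes mural cells, fell from 152 ± 31.0 CPM (SD, n = 4) to 81.5 ± 10.2 CPM (SD, n = 6), by 0.90 on the log2 scale (edgeR adjusted p = 0.000184), while its partner subunit Gucy1b3 stood at 0.06 (edgeR adjusted p = 0.753). By adjusted p alone, Abcc9, a subunit of potassium channels, also fell, by 0.58 on the log2 scale (edgeR adjusted p = 0.000505), and Rgs4, a relative of Rgs5, rose by 0.53 (edgeR adjusted p = 0.0218). Abcc9 and Myocd are also expressed in heart muscle cells. Gucy1b3, Srf, Mkl2, Ppp1r12b, Ppp1r14a, Abcc9, Rgs4, Actg2, Kcnmb1 and Sncg were named after their values were seen.

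Among 11 ligands and receptors of mural cell recruitment, all tested, 1 was called higher, Pdgfb, and 1 lower, Angpt1. Over all genes tested, 8.5% were called higher and 7.16% lower. Pdgfb, the ligand of the receptor encoded by Pdgfrb, went from 12.5 ± 2.44 CPM (SD, n = 4) to 19.6 ± 3.14 CPM (SD, n = 6), a log2 fold change of 0.65 (edgeR adjusted p = 0.00624). Angpt1, a ligand of the endothelial receptor Tek that steadies the contact of mural and endothelial cells, went from 331 ± 95.5 CPM (SD, n = 4) to 98.1 ± 51.6 CPM (SD, n = 6), a log2 fold change of -1.75 (SE 0.28, edgeR adjusted p = 0.000472). By adjusted p alone, 3 genes of the list were higher and 2 lower, where 16.3% of all genes were higher and 15.0% lower. Among the genes named from the wider mural lists, Acta2, Myocd and Pdgfb were higher in mutant mice without overlap. Ppp1r12b, Mkl2, Gucy1a3, Abcc9 and Angpt1 were lower without overlap. Over all genes, 11.7% lay higher and 11.0% lower without overlap.

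**Figure D4:**
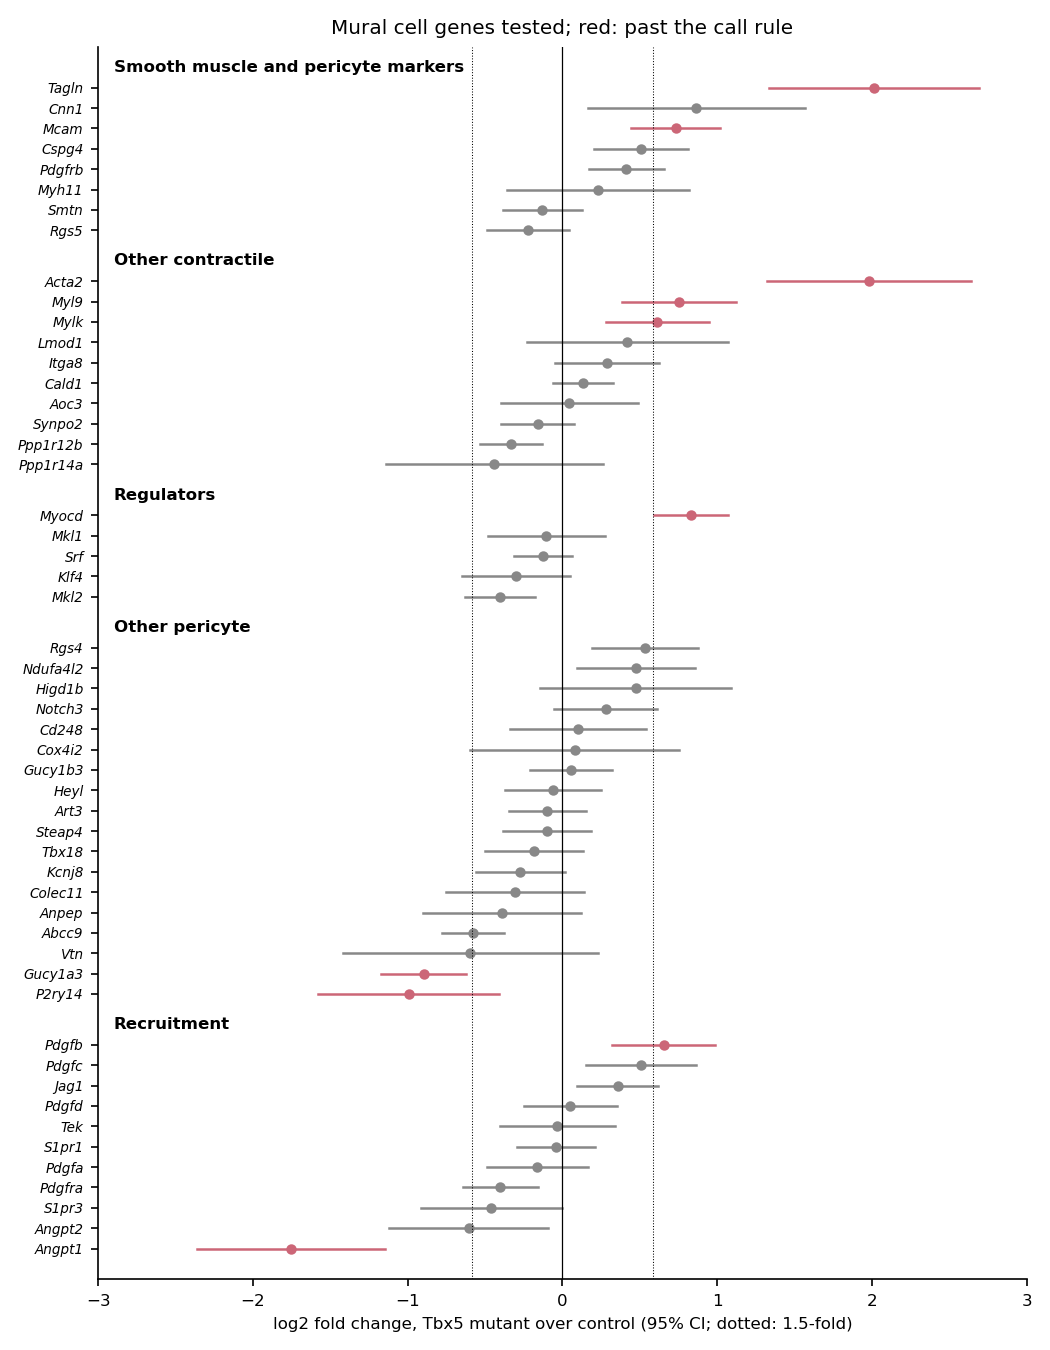
Log2 fold change of mutant over control (horizontal axis) with its 95% confidence interval for each tested gene of the 8 markers and of the 4 wider mural lists, red where called and grey where not, with dotted lines at 1.5-fold. Tagln (2.01) and Acta2 (1.98) stand to the right of all others, and Angpt1 (-1.75) to the left.

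Genes of other cell types of the atrium also differed between the groups. The counts below stand beside 8.5% of all genes called higher and 7.16% called lower. By adjusted p alone these shares were 16.3% and 15.0%. Of 11 fibroblast markers, 5 were called higher and 1 lower, with a median log2 fold change of 0.57, and their summed level was 9181 to 11298 CPM in control and 10009 to 13428 CPM in mutant mice. The called genes were Postn (2.33), Cthrc1 (1.80), Col1a1 (1.31), Col3a1 (1.27), Col1a2 (1.19) and Gsn (-0.76). The sum of the fibroblast markers joins opposite changes. Within it Gsn went from 5675 ± 677 CPM (SD, n = 4) to 3344 ± 789 CPM (SD, n = 6). Col3a1 went from 1433 ± 386 CPM (SD, n = 4) to 3460 ± 758 CPM (SD, n = 6). Activated fibroblasts are known to express Acta2 and Tagln, and smooth muscle genes therefore do not belong to smooth muscle alone. Of 11 endothelial markers, 1 was called higher, Vwf at 0.70, and none lower, with summed levels of 2963 to 4246 CPM in control and 3883 to 5050 CPM in mutant mice. By adjusted p alone, 3 of the 11 were higher and none lower. Of 8 leukocyte markers, 5 were tested and 4 called higher, Cd68 (1.00), Emr1 (0.86), Ptprc (0.84) and Csf1r (0.60), with summed levels of 323 to 531 CPM in control and 535 to 786 CPM in mutant mice. Among 9 cardiomyocyte markers, 2 were called higher, Tnnt2 (1.12) and Actc1 (0.90), and 4 lower, Myl7 (-2.73), Ryr2 (-1.65), Sln (-0.98) and Nppa (-0.65). Of 6 Schwann cell markers, 4 were tested and Kcna1 was called lower (-2.50), and of 5 mesothelial markers none was called, with Upk3b (-0.26) lowest and Krt19 (0.16) highest. All 4 adipocyte markers were too low to test, at a sum of up to 4.14 CPM in control and 20.8 CPM in mutant mice. The 20.8 CPM was found in mutant mouse M2, and the other mutant mice had 0 to 2.51 CPM. Of 5 erythroid genes, 3 were at 0 in all libraries, and Alas2 was called higher (1.05). The part of these other cell types in the levels of the 8 markers was not tested.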

How the data were processed

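RNA-seq of right atria from 10 mice was analysed, 1 library each. Per the submitters' processing notes, reads were checked with FastQC, aligned with TopHat2 2.0.11 to mm10 and counted with featureCounts. The gene annotation and the strand setting are not given in the sources used here, and the labels describe the libraries both as poly(A) mRNA and as ribosome-depleted total RNA. The paper's text describes the processing of left atrium only. The authors deposited raw counts per gene for each library and a normalized signal, which is the count divided by 1 DESeq2 size factor per library. The deposited table also holds the authors' own comparison (log2 fold change and its error, Wald score, p-value and linear ratio), which was not used. All columns of library values were mapped to a sample.

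Counts were compared with edgeR 4.0.16 in R 4.3.3: its filterByExpr step removed low genes, TMM set the library scaling, and the quasi-likelihood test took in 10 libraries with no covariate and a prior count of 0.125. Libraries held 5703775 to 7095141 counts, and counting error is smallest for genes with many counts. Levels are CPM on the TMM library size. The exact two-sided permutation test used log2(CPM + 1) over all 210 splits. Correlations used 100000 permutations. Exon lengths came from GENCODE M21 for 22871 genes, and positions and promoter windows from RefSeq on GRCm38.p6. On simulated counts over 12989 genes, with 200 genes changed by a fold of 2, 188 were recovered with 3 other calls. Alternatives were DESeq2 1.42.0, limma 3.58.1, other scalings, filters, covariates and thresholds, each labelled sex alone, and each library left out in turn. The trend on transcript length was removed in a further alternative. Spearman's rho of log2 fold change with transcript length was -0.32 in the main fit and 0.0089 in this alternative.

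The 8 markers and the wider lists were chosen with earlier results of these data known. The genes named are Tbx5, the 8 markers, the called genes of each wider list (at most 6) or otherwise its highest and lowest, and the 3 genes nearest in pattern to each called marker. Some of these nearest genes are not reported here. Genes from outside this rule are said to be so.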

Additional observations from a re-analysis of the deposited data

How the results depend on the processing

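Depth limits Myh11 most among the markers, with at most 130 counts in a library. Over 26 alternatives in which genes were fitted again, Tagln was called in 26 (log2 fold change 1.85 to 2.31), Mcam in 25, Cspg4 in 4, Cnn1 in 4, Pdgfrb in 1, and Myh11, Smtn and Rgs5 in 0. The number of markers called, 2 of 8, was 1 in mice labelled male, 5 in mice labelled female, 1 at a fold change over 2 and 4 with no fold threshold. By their reads the control and mutant mice of each labelled sex were of opposite sex. With each library left out in turn it was 2 to 3. Of the wider lists 27 genes were called, 17 in mice labelled male, 13 at a fold change over 2, and 22 to 29 with each library left out. Over all genes 2049 of 13084 tested were called, against 1478 of 13112 in mice labelled male and 1900 of 13292 in mice labelled female. The number was 1284 of 9983 at a mean count of at least 50. It was 906 at a fold change over 2, 4096 with no fold threshold, and 1807 to 2205 with each library left out. Fewer genes were tested or fewer could pass in the stricter settings, and fewer mice were used in each labelled sex. Smtn turned from -0.13 to 0.060 in mice labelled male, and the cause was not tested. Pdgfrb missed an adjusted p of 0.05 in mice labelled male (0.394) and with the replicate block (0.0667), and Cspg4 in mice labelled male (0.193), by edgeR. Cnn1 passed in mice labelled female (1.29, edgeR adjusted p = 0.000569) and without the filter on low counts (edgeR adjusted p = 0.0429). It did not pass in mice labelled male (0.38, edgeR adjusted p = 0.648) or with the replicate block (0.49, edgeR adjusted p = 0.29). With the trend on transcript length removed, Cspg4 was called at 0.74 and 3 of the 8 markers were called.

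Both groups use the labels M1, M2, F1 and F2, but mice with the same label were no more alike than others: after the group means were removed, their profiles had a mean correlation of -0.0071 over 4 pairs, against 0.0013 over 20 other pairs. The other pairs ranged from -0.286 to 0.276, and by their reads the 2 mice of a same label were of opposite sex. So few pairs cannot show whether mice of a same label shared a litter or a cage. With the replicate block, 1957 genes were called in all, 2 of the 8 markers and 29 genes of the wider lists.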
